A study of Mus musculus with 4 samples.

Results

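The genes of the eukaryotic translation initiation factors eIF2 to eIF6 were examined in mouse embryonic stem cells (ESCs) depleted of Cnot1. They were chosen by symbol alone, as every gene whose name begins with Eif2, Eif3, Eif4, Eif5 or Eif6, which gave 60 of the 50559 genes listed. Of these, 17 fell in the eIF2 group, 18 in the eIF3 group, 19 in the eIF4 group and 6 in the eIF5 and eIF6 group. By RefSeq, 51 are protein-coding and 8 are pseudogenes. The remaining one, Eif2c5, is a long noncoding RNA gene that carries an older Argonaute-type symbol and is no initiation factor. The cells were E14 ESCs, a widely used mouse line, grown without feeder cells on gelatin with leukemia inhibitory factor. They received either a non-targeting siRNA (siNT) or an siRNA against Cnot1 (siCnot1), each at 150 nM, and were collected 48 h later. Each group had 2 biological replicates of poly(A)+ RNA-seq, so 4 libraries were compared. The study describes 2C-tdTomato ESCs with a MERVL promoter-driven reporter, but the labels of these libraries name no transgene, and which Cnot1 siRNA was used is not given in the sources used here.

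Initiation factors bring the ribosome to the start codon of an mRNA. eIF2 delivers the initiator methionyl-tRNA as a GTP-bound complex, eIF2B recharges it with GTP, and a family of stress-activated kinases blocks that exchange by phosphorylating eIF2. eIF3 is the large scaffold that binds the small ribosomal subunit, eIF4F recognises the mRNA cap and unwinds the leader, and eIF5, eIF5B and eIF6 act on start site recognition and on the joining of the ribosomal subunits. CNOT1, the gene product targeted here, holds together the CCR4-NOT deadenylase, which shortens poly(A) tails. Depletion of Cnot1 was used in the study to ask about the 2C-like state of ESCs, and the question put to these genes is whether their mRNA levels moved with it.

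The libraries held 32135824 to 32557440 counts on genes. At this depth a count of 3 corresponds to 0.0921 to 0.0934 CPM, the counts on a gene scaled to a fixed library size. Levels below are CPM after TMM scaling unless TPM, which is per exon length, is named. Cnot1 (chr8:96445559-96534741, GRCm39) had 912 and 985 CPM in siNT and 185 and 192 CPM in siCnot1, which is 19.8% of the siNT mean (log2 fold change -2.33, SE 0.059, adjusted p = 2.37e-18). Across tested genes, which are not independent replicates, log2 levels correlated at 0.988 and 0.989 within the groups and at 0.976 to 0.977 between them. The 8 ESC markers summed to 5646 and 5490 CPM in siNT and 4622 and 4812 CPM in siCnot1, and 6 of them fell. The 6 fibroblast markers summed to 8.74 to 13.3 CPM, with Col3a1 and Dcn at 0 counts in every library and most of the sum on Thy1. Col1a1 was called higher, from 39 and 48 counts to 116 and 131 counts (log2 fold change 1.40, adjusted p = 0.000541). The 6 primitive endoderm markers summed to 14.8 and 12.6 CPM in siNT and 22.9 and 22.1 CPM in siCnot1, with Dab2 and Pdgfra called higher. The 5 trophectoderm markers went from 60.9 and 63.7 CPM to 45.2 and 45 CPM, nearly all of it Tfap2c, which fell, while Krt7 was called higher from 2 and 4 counts to 16 and 22 counts (2.52, adjusted p = 0.02). The part of these markers in the results below was not tested. In bulk RNA, fewer cells of a type and less RNA per cell cannot be told apart.

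Start-site sequences are shown first because many translation genes carry a terminal oligopyrimidine (TOP) tract, a C at the first transcribed base followed by a run of C and T, which ties their mRNAs to growth signalling. RefSeq windows on GRCm38.p6, 250 bases before to 50 bases after each annotated start, were at hand for 41 of the 60 genes. A start at C with a pyrimidine run of at least 5 bases was found in 3 of the 41 (7.32%), against 3.01% of all 27025 genes of the table and 3.23% of 6093 tested genes with a mean of at least 20 CPM. Besides Eif2c5 these were Eif2s3x, which fell, and Eif3f, which was not called. Both runs are 11 bases long. Each line below gives 30 bases on the gene's strand, with the run from the annotated start in capitals.
Eif2s3x, chrX:94212641-94212670, minus strand: gcggctgccgagcattttcCTTTTCTCTCC
Eif3f, chr7:108934396-108934425, plus strand: ctcttctgttctaggctctCTCTCTTTCTC

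The E-box CACGTG, which reads the same on both strands and is bound by MYC and related factors, was present in the windows of 9 of the 41 genes (22%). This compares with 8.09% of all genes of the table and 13.2% of the tested genes with a mean of at least 20 CPM. It was found in 5 of 23 genes that fell (21.7%) and in 4 of 15 that were not called (26.7%), so the shares were close. The genes were Eif3a, Eif3f, Eif3k, Eif4a1, Eif4e, Eif4g1, Eif4h, Eif5a and Eif5a2, and none of the 15 genes of the eIF2 group. The ETS motif CCGGAAGT, searched on both strands, was in 8 of 41 (19.5%), against 4.31% and 11.2%, and the ATF4 composite site TGATGNAA was in 1 of 41 (2.44%), against 4.51% and 2.28%. These motifs were chosen after the values of the genes were known, and a match describes letters, not binding. Of the E-box genes, Eif4e and Eif4g1, which encode the cap-binding and the scaffold subunit of eIF4F, are shown with Eif5a2, which fell. The capitals mark the E-box.
Eif4e, chr3:138527192-138527221, plus strand: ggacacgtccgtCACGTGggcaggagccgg
Eif4g1, chr16:20672661-20672690, plus strand: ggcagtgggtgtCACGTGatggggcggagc
Eif5a2, chr3:28781123-28781152, plus strand: actaatccgcagCACGTGgggttgccaggg

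Relative to the other poly(A)+ RNA of each library, initiation factor mRNAs were mostly lower after Cnot1 depletion, by modest amounts. Neither the amount of mRNA per cell nor the length of poly(A) tails was measured. Of the 60 genes, 54 had enough counts to be tested, and 32 of these fell, 3 rose and 19 were not called at an adjusted p under 0.05. No gene changed by as much as 2-fold, and the called changes ran from -0.51 (Eif5a2) to 0.64 (Eif4a3l1) on the log2 scale. The 3 that rose were Eif2ak3, which encodes the eIF2 kinase PERK, and Eif4a3l1 and Eif4a3l2, which are named as copies of Eif4a3. The 60 genes together took 1.88% and 1.86% of all counts in siNT and 1.69% and 1.72% in siCnot1. In 50 of the 54 tested genes the groups did not overlap, and in 46 of those siCnot1 was lower, while 63.9% of all tested genes had groups that did not overlap.

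These counts have to be read against how many genes were called in all, since abundant genes pass the test more easily. Of the 18144 genes tested, 29.7% were called, 15.0% higher and 14.7% lower. Among tested genes with a mean of at least 20 CPM, 41.5% were called, 14.7% higher and 26.8% lower, and 31 of the 48 initiation factor genes at that level (64.6%) fell. Among those with a mean of at least 100 CPM, a level chosen after the data were seen, 55.9% were called, 12.2% higher and 43.7% lower, and 25 of 35 initiation factor genes (71.4%) fell while none rose. The median log2 fold change of the 54 genes was -0.26, beside 0.0084 for all tested genes. At 100 CPM or more it was -0.26, beside -0.12. Exon length also moved with the change. Among genes of at least 100 CPM, those with exons of at most 4100 bases had a median of -0.17 and those above it of -0.064, members aside. The initiation factor genes had -0.26 (27 genes) and -0.13 (8 genes) in the same classes. The part of length in the result was not tested.

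**Figure D1:**
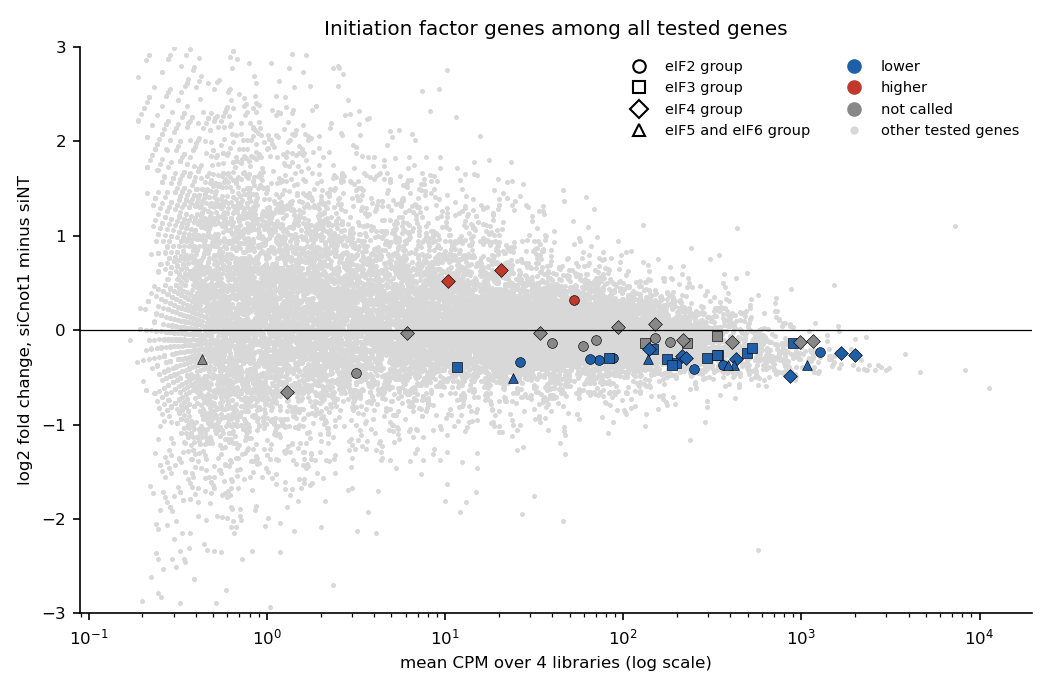
Mean CPM over the 4 libraries (log axis) against the log2 fold change, siCnot1 minus siNT, for all tested genes (grey; 66 lie outside the plotted range of 3 either way) and the 54 initiation factor genes (symbols by group, colours by call). Of the 35 initiation factor genes of at least 100 CPM, 34 lie below 0 and Eif4ebp1 lies just above it, at 0.065, and the 3 that rose lie below 100 CPM.

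All values depend on how libraries are scaled against each other. With library totals in place of TMM the median of all tested genes moved from 0.0084 to 0.12. The number of initiation factor genes that fell went from 32 to 23 while 4 instead of 3 rose. Over all tested genes the share that fell went from 14.7% to 8.64% and the share that rose from 15% to 22%. At 100 CPM or more the share that fell went from 43.7% to 25.1%. Calls lost with library totals were those of Eif2ak2, Eif2b4, Eif2s2, Eif3a, Eif3b, Eif3c, Eif3i, Eif3s6-ps2 and Eif4ebp2. Calls lost without the filter on low counts, where 30308 genes were tested, were those of Eif2ak2, Eif2ak3, Eif2b3, Eif2b4, Eif3a, Eif3i, Eif3s6-ps2, Eif4a3l2, Eif4e2, Eif4ebp2 and Eif6. Leaving out any 1 library lowered the number of genes that fell. The medians in those fits ran from -0.29 to -0.23 for the eIF2 group and from -0.28 to -0.22 for the eIF3 group. How many of all tested genes were called in those fits is not given here, so the lost calls alone do not show a smaller change. On the TPM scale the median log2 ratio was -0.098 for the 54 genes, beside 0.17 for all tested genes and 0.036 for those of at least 100 CPM. The median of the 54 genes was -0.15 with library totals, beside -0.017 for tested genes of at least 100 CPM. It was -0.26 with DESeq2's size factors, beside -0.13, and -0.24 with upper-quartile scaling, beside -0.10. The eIF4 group taken alone lay close to tested genes of at least 100 CPM under each scaling. Its median was -0.13 beside -0.12 with TMM and -0.019 beside -0.017 with library totals. It was -0.13 beside -0.13 with DESeq2's size factors and -0.11 beside -0.10 with upper-quartile scaling. The size of the fall of the 54 genes depended on the scale.

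**Figure D2:**
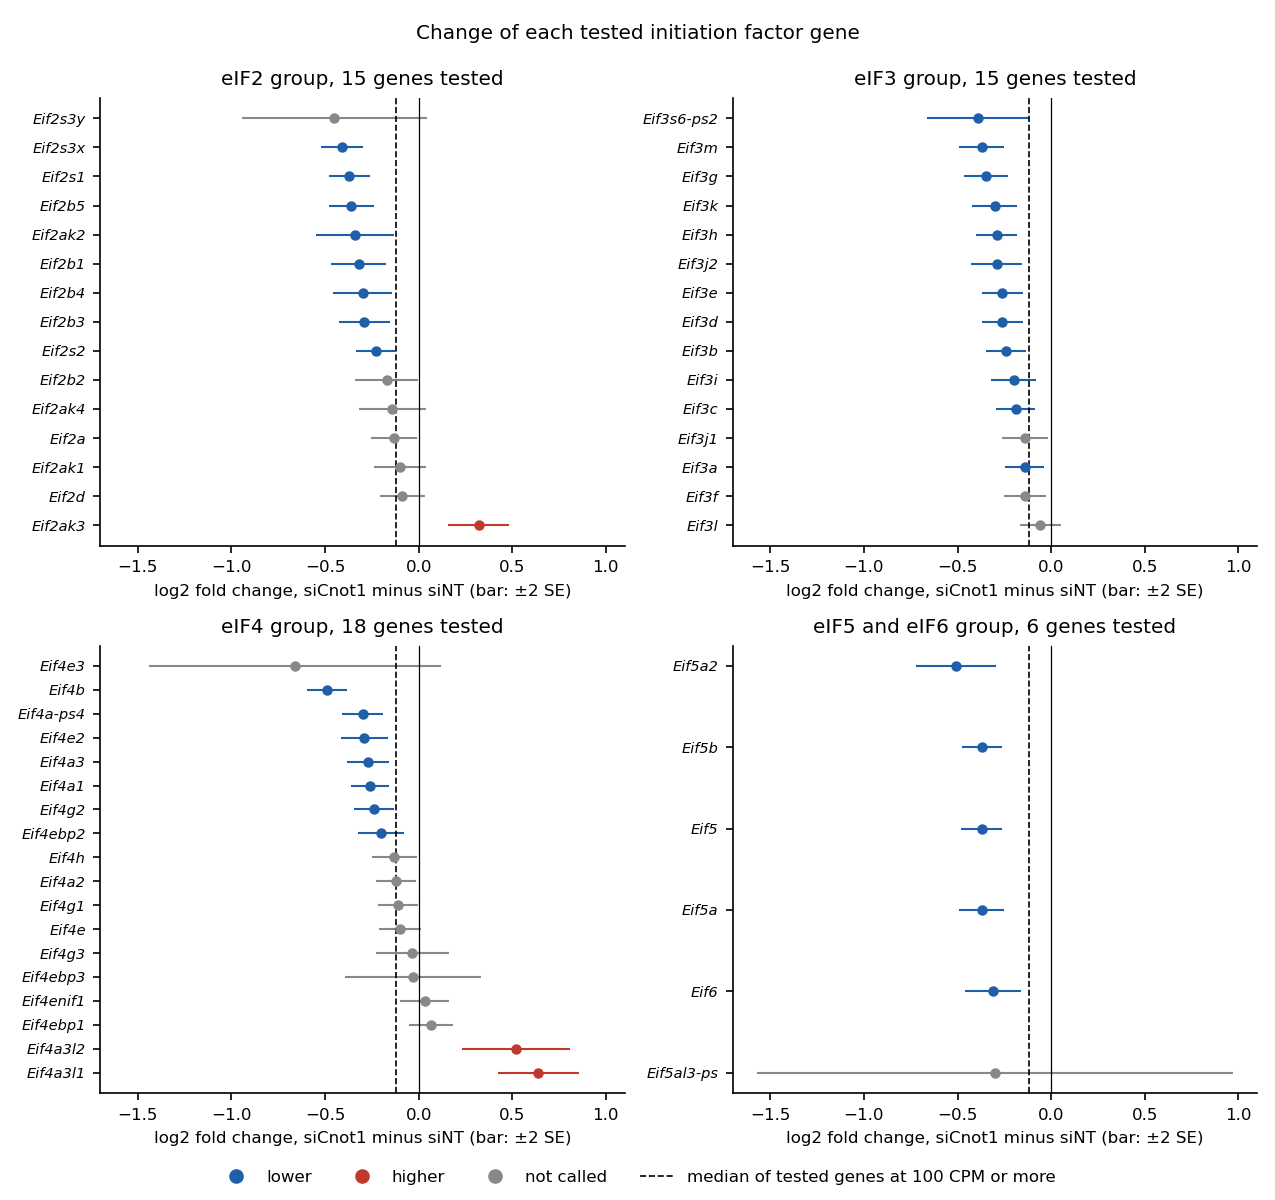
Log2 fold change, siCnot1 minus siNT, of the 54 tested genes in 4 panels by group; points are edgeR estimates, bars are 2 SE either way and colours give the call at an adjusted p under 0.05. Nearly all points lie left of 0, and Eif2ak3, Eif4a3l1 and Eif4a3l2 lie to the right; the dashed line is the median of tested genes of at least 100 CPM, -0.12.

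In the eIF2 group, 8 of 15 tested genes fell (53.3%), 1 rose and 6 were not called, with a median of -0.29. Of all tested genes of at least 20 CPM 26.8% fell, with a median of -0.055. At 100 CPM or more 43.7% fell, with a median of -0.12. With library totals 5 of the 15 fell (33.3%) and 1 rose, with a median of -0.19. On that scale 15.1% of tested genes of at least 20 CPM fell, and 25.1% of those of at least 100 CPM. All 3 subunits of eIF2 that are well expressed fell. Eif2s1, which encodes the alpha subunit that the kinases phosphorylate, had 410 and 402 CPM in siNT and 317 and 313 CPM in siCnot1 (log2 fold change -0.37, SE 0.054, adjusted p = 1.7e-05). Eif2s2, the beta subunit gene, had 1341 and 1406 CPM against 1158 and 1184 CPM (-0.23, SE 0.052, adjusted p = 0.00167). Eif2s3x, the X-linked gamma subunit gene that carries the pyrimidine start, had 280 and 287 CPM against 208 and 218 CPM (-0.41, SE 0.057, adjusted p = 6.96e-06). The groups did not overlap for any of the 3. The Y-linked copy Eif2s3y was near 3 CPM, with 3.69 and 3.63 CPM in siNT and 2.86 and 2.51 CPM in siCnot1, and was not called (-0.45, SE 0.248, adjusted p = 0.188). Per exon length the Y copy made up 0.414% to 0.497% of the gamma subunit mRNA in the 4 libraries. Eif2s1 and Eif2s3x were called lower in each of the 12 alternatives of scaling, filter, test and left-out library. Eif2s2 was not called with library totals (-0.12), without siNT replicate 2 (-0.20) or without siCnot1 replicate 1 (-0.22).

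Of the 5 genes of eIF2B, the exchange factor for eIF2, 4 fell. Among all tested genes of at least 20 CPM 26.8% fell, and among those of at least 100 CPM 43.7%. Eif2b5 encodes the catalytic epsilon subunit and had 216 and 211 CPM in siNT and 160 and 174 CPM in siCnot1 (-0.36, SE 0.060, adjusted p = 7.61e-05). Eif2b1, the alpha subunit gene, had 77.2 and 85.9 CPM against 65.6 and 64.7 CPM (-0.32, SE 0.073, adjusted p = 0.00157). Eif2b3, the gamma subunit gene, had 101 and 92 CPM against 76.9 and 80.9 CPM (-0.29, SE 0.069, adjusted p = 0.00236). Eif2b4 (-0.30) also fell, and Eif2b2 (-0.17, adjusted p = 0.143) was not called. Summed over the 5 genes, eIF2B had 539 and 514 CPM in siNT and 413 and 436 CPM in siCnot1, or 80.8% of siNT. The summed TPM of eIF2B was 90.9% of siNT. Each of the 4 calls was lost without at least 1 library: Eif2b5 without siNT replicate 1 (-0.35), Eif2b1 without siNT replicate 2 (-0.25) or siCnot1 replicate 2 (-0.32), Eif2b3 without siNT replicate 1 (-0.23) or siCnot1 replicate 1 (-0.26), and Eif2b4 without the same libraries as Eif2b3 (-0.22 and -0.24). Eif2a (-0.13) and Eif2d (-0.088), whose products can deliver initiator tRNA by other routes, were not called.

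The 4 eIF2 kinases did not move together. Eif2ak3 (chr6:70821468-70882225, GRCm39) encodes PERK, the kinase of the endoplasmic reticulum stress response, and had 47.3 and 46.6 CPM in siNT and 61.8 and 55.8 CPM in siCnot1 (0.32, SE 0.082, adjusted p = 0.00427). Both siCnot1 libraries were above both siNT libraries. Eif2ak2, which encodes the double-stranded RNA sensor PKR, went the other way, with 29.5 and 29 CPM against 25.1 and 21.3 CPM (-0.34, SE 0.105, adjusted p = 0.0174). Eif2ak1, which encodes the heme-regulated kinase HRI, had 73.9 and 72.2 CPM against 67.7 and 68.6 CPM (-0.10, SE 0.070, adjusted p = 0.312). Eif2ak4, which encodes the amino acid sensor GCN2, had 40.8 and 42.9 CPM against 39.5 and 36.4 CPM (-0.14, SE 0.090, adjusted p = 0.254). The interval of 2 SE ran from -0.24 to 0.041 for Eif2ak1 and from -0.32 to 0.037 for Eif2ak4. Per exon length, Eif2ak3 made up 20.3% and 20.2% of the kinase mRNA in siNT and 26.6% and 25.1% in siCnot1, and Eif2ak2 made up 9.3% and 9.24% against 7.92% and 7.04%. Eif2ak3 was not called without siNT replicate 1 (0.33), siNT replicate 2 (0.31) or siCnot1 replicate 1 (0.25), nor without the filter on low counts (0.32). Eif2ak2 was not called without siNT replicate 1 (-0.33), siNT replicate 2 (-0.35) or siCnot1 replicate 2 (-0.23), with library totals (-0.23) or without the filter (-0.34).

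Genes that set or read out eIF2 phosphorylation were described as lists. Of 9 genes that control it, 4 fell (44.4%) and none rose, with a median of -0.11. All 9 had at least 20 CPM, but not all had 100 CPM. Of all tested genes of at least 20 CPM, 26.8% fell, with a median of -0.055. At 100 CPM or more 43.7% fell, with a median of -0.12. With library totals 3 of the 9 genes fell and 1 rose, and their median was -0.0061. On that scale 15.1% of tested genes of at least 20 CPM fell and 25.7% rose, with a median of 0.052. At 100 CPM or more 25.1% fell and 22.1% rose, with a median of -0.017. Of the 9 genes, the 3 with the smallest p encode the catalytic subunits of protein phosphatase 1, the enzyme that removes the phosphate. Ppp1cb had 412 and 425 CPM in siNT and 306 and 310 CPM in siCnot1 (-0.44, SE 0.054, adjusted p = 1.55e-06). Ppp1cc (-0.38, SE 0.054, adjusted p = 1.15e-05) and Ppp1ca (-0.35, SE 0.057, adjusted p = 4.99e-05) changed by similar amounts. The other 5 that were not called include 2 genes named for regulatory subunits of that phosphatase. These are Ppp1r15a (-0.014, adjusted p = 0.941) and Ppp1r15b (0.04, adjusted p = 0.668). Of 5 readouts of ATF4, the transcription factor whose translation rises when eIF2 is phosphorylated, only Atf4 itself passed the test. That is 20% higher, where 15% of all tested genes rose, and 2 of the 5 had at least 20 CPM. Ddit3 (0.23) and Chac1 (1.01) lay above 0 and Trib3 (-0.36) and Asns (-0.10) below it, none of them called. Atf4 had 53.8 and 52.2 CPM against 63.9 and 68 CPM (0.31, SE 0.077, adjusted p = 0.00313). That call was lost without siNT replicate 1 (0.33), siNT replicate 2 (0.29) or siCnot1 replicate 2 (0.26). These are mRNA levels, and neither eIF2 phosphorylation nor protein was measured.

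**Figure D3:**
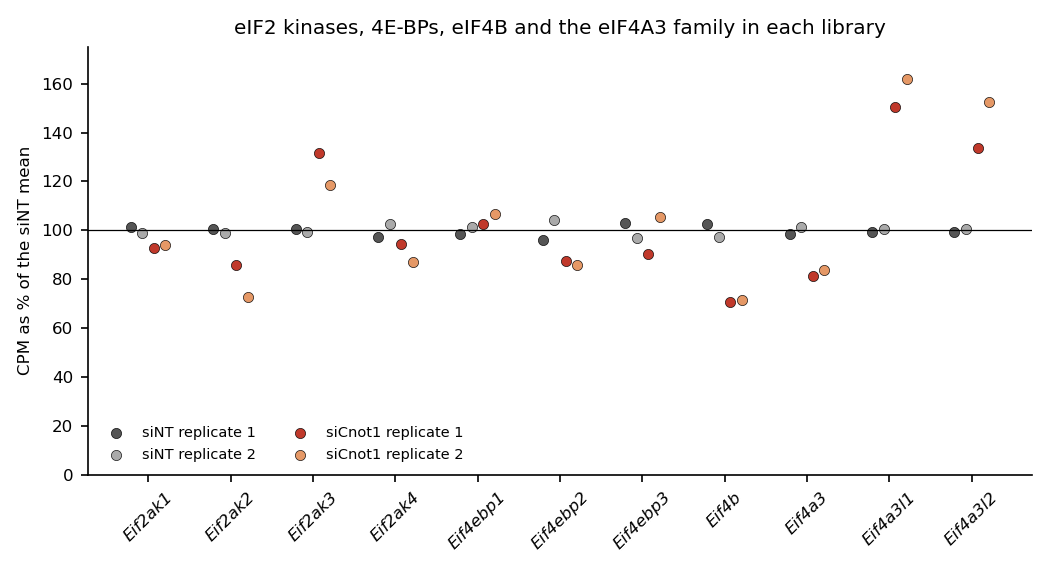
CPM of each library as a percent of the siNT mean for the 4 eIF2 kinase genes, the 3 4E-BP genes, Eif4b, Eif4a3 and its copies; each point is 1 library and the line marks 100%. Both siCnot1 points lie above the siNT points for Eif2ak3, Eif4a3l1 and Eif4a3l2 and below them for Eif2ak2, Eif4b, Eif4a3 and Eif4ebp2. They also lie above for Eif4ebp1 and below for Eif2ak1 and Eif2ak4, which were not called.

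In the eIF3 group, 12 of 15 tested genes fell (80%), none rose and 3 were not called. The median was -0.26, with a range from -0.39 to -0.057. Of all tested genes of at least 20 CPM 26.8% fell, and of those of at least 100 CPM 43.7%. With library totals 7 of the 15 fell (46.7%), with a median of -0.15. On that scale 15.1% of tested genes of at least 20 CPM fell, and 25.1% of those of at least 100 CPM. Of the 12 genes for the core subunits of the complex, 10 fell, and Eif3f and Eif3l did not pass. Eif3m, a subunit of the octameric core, had 213 and 211 CPM in siNT and 172 and 157 CPM in siCnot1 (-0.37, SE 0.060, adjusted p = 5.89e-05). Eif3g, whose product binds RNA during scanning, had 224 and 218 CPM against 167 and 179 CPM (-0.35, SE 0.059, adjusted p = 7.11e-05). Eif3h had 326 and 324 CPM against 261 and 272 CPM (-0.29, SE 0.055, adjusted p = 0.00035). For each of these 3 genes, both siCnot1 libraries lay below both siNT libraries, and the call held in each of the 12 alternatives. Eif3k had 203 and 188 CPM against 157 and 161 CPM (-0.30, SE 0.060, adjusted p = 0.000571). Eif3d, a subunit with cap-binding activity of its own, had 370 CPM in both siNT libraries against 301 and 318 CPM (-0.26, SE 0.055, adjusted p = 0.00101). Eif3e had 362 and 371 CPM against 299 and 314 CPM (-0.26, SE 0.055, adjusted p = 0.000979). The calls of Eif3d and Eif3e were lost without siNT replicate 1 (-0.26 and -0.28), siNT replicate 2 (-0.26 and -0.24) or siCnot1 replicate 1 (-0.22 and -0.23), and that of Eif3k without siNT replicate 1 (-0.24).

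Among the other subunits of eIF3 the changes were smaller. Eif3b (-0.24), Eif3i (-0.20), Eif3c (-0.19) and Eif3a (-0.14) fell. Eif3b was not called without siNT replicate 1 (-0.22) or siCnot1 replicate 1 (-0.21). Whichever library was left out, Eif3i (-0.24 to -0.16) and Eif3c (-0.22 to -0.17) were not called. The same held for Eif3a, the gene of the largest scaffold subunit, which had an adjusted p of 0.0394 with all 4 libraries (-0.16 to -0.14). Eif3f (-0.14, adjusted p = 0.0549) lay just outside the threshold and was called by DESeq2 and by limma-voom. Eif3l had 340 and 348 CPM against 324 and 338 CPM, with an interval from -0.17 to 0.053 (adjusted p = 0.484).

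Per exon length, the 12 core genes were at like levels. Their mean TPM in siNT ran from 345 for Eif3i to 582 for Eif3e, a range of 1.69-fold. In siCnot1 it ran from 337 to 544. The siNT libraries had summed TPM of 5382 and 5484 and the siCnot1 libraries 5143 and 5185, or 95.1% of siNT, while the summed CPM after TMM was 86.4% of siNT. On the TPM scale Eif3l went from a mean of 445 ± 13.8 (SD, n = 2) to 478 ± 8.27 and Eif3a from 447 ± 4.73 to 452 ± 9.67, the opposite direction to their CPM.

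**Figure D4:**
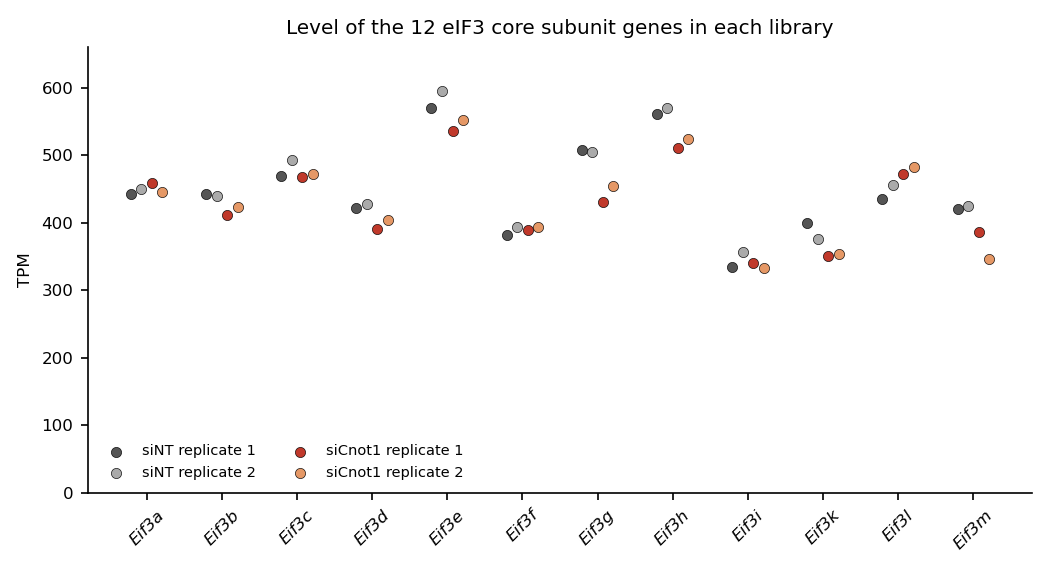
TPM of the 12 eIF3 core subunit genes, with 1 point per library. Levels lie between 333 and 595 TPM, and the siCnot1 points of Eif3b, Eif3d, Eif3e, Eif3g, Eif3h, Eif3k and Eif3m are below both siNT points, while those of Eif3l are above them.

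eIF3j, a loosely bound subunit, has a pair of gene copies in the mouse. Eif3j1 had 135 and 142 CPM in siNT and 125 and 126 CPM in siCnot1 and was not called (-0.14, SE 0.061, adjusted p = 0.0806). Eif3j2 had 90.6 and 91.6 CPM against 77.4 and 71.8 CPM and fell (-0.29, SE 0.068, adjusted p = 0.00244), a call lost without either siNT replicate (-0.30 and -0.28) or siCnot1 replicate 2 (-0.24). Eif3j1 made up 59.9% and 60.8% of the eIF3j mRNA per length in siNT and 61.8% and 63.8% in siCnot1. The pseudogene Eif3s6-ps2, which carries an older symbol of Eif3e, was at 9.37 to 13.6 CPM and fell (-0.39), a call lost whichever library was left out (-0.51 to -0.29). Its counts were 3.57% and 3.67% of those on Eif3e in siNT and 3.13% and 3.46% in siCnot1. How reads that match several near-identical genes were counted is not given in the sources used here, so the values of such copies are uncertain.

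In the eIF4 group, 7 of 18 tested genes fell (38.9%), 2 rose (11.1%) and 9 were not called, with a median of -0.13. These shares and the median are near those of all tested genes of at least 100 CPM, of which 43.7% fell and 12.2% rose with a median of -0.12. Not all genes of the group reach that level. Of tested genes of at least 20 CPM, 26.8% fell and 14.7% rose, with a median of -0.055. With library totals 6 genes of the eIF4 group fell (33.3%) and 3 rose (16.7%), and their median was -0.019. On that scale 25.1% of tested genes of at least 100 CPM fell and 22.1% rose, with a median of -0.017. At 20 CPM or more 15.1% fell and 25.7% rose, with a median of 0.052. Eif4b (chr15:101982208-102005608, GRCm39), which encodes a cofactor of the eIF4A helicase, had the smallest p of all 60 genes. It had 1036 and 982 CPM in siNT and 712 and 722 CPM in siCnot1, which is 71.1% of the siNT mean (-0.49, SE 0.053, adjusted p = 2.72e-07). The groups were far apart, and the call held in each of the 12 alternatives. Eif4h, which encodes a related cofactor, had a log2 fold change of -0.13 and was not called (adjusted p = 0.0998).

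The eIF4A helicase is encoded mainly by Eif4a1, with 2171 CPM in both siNT libraries and 1768 and 1855 CPM in siCnot1 (-0.26, SE 0.051, adjusted p = 0.00043). Eif4a2, its close paralogue, had 1053 and 1000 CPM against 965 and 927 CPM and was not called (-0.12, SE 0.053, adjusted p = 0.102). Eif4a1 made up 83.3% and 84% of the TPM of the pair in siNT and 81.6% and 82.9% in siCnot1. The pseudogene Eif4a-ps4 fell with Eif4a1, from 482 and 472 CPM to 377 and 398 CPM (-0.30, SE 0.055, adjusted p = 0.000185). Its counts were 22.2%, 21.8%, 21.3% and 21.5% of those on Eif4a1 in the 4 libraries, a nearly fixed ratio. All 3 calls of this family, with that of Eif4a3 below, were lost without 1 siNT library: Eif4a1 (-0.27) and Eif4a-ps4 (-0.29) without replicate 1, and Eif4a3 (-0.25) without replicate 2.

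The family of Eif4a3, a helicase of the exon junction complex rather than of eIF4F, split. Eif4a3 had 232 and 239 CPM in siNT and 192 and 198 CPM in siCnot1 (-0.27, SE 0.057, adjusted p = 0.000738). Eif4a3l1 (chr6:136304537-136306981, GRCm39) had 16.1 and 16.3 CPM against 24.4 and 26.2 CPM (0.64, SE 0.107, adjusted p = 7.85e-05). Eif4a3l2 (chr6:116527132-116529563), a pseudogene by RefSeq, had 8.48 and 8.57 CPM against 11.4 and 13 CPM (0.52, SE 0.143, adjusted p = 0.00767). The siCnot1 libraries of both copies were above the siNT libraries while those of Eif4a3 were below. Counts on Eif4a3l1 were 6.95% and 6.83% of those on Eif4a3 in siNT and 12.7% and 13.2% in siCnot1, and for Eif4a3l2 the values were 3.65% and 3.59% against 5.96% and 6.57%. The ratio of these copies to their parent thus changed, unlike that of Eif4a-ps4 to Eif4a1. The call of Eif4a3l1 held in each of the 12 alternatives, and that of Eif4a3l2 was lost without either siNT replicate (0.51 and 0.53), without siCnot1 replicate 2 (0.42) and without the filter on low counts (0.51). Counts on Eif4a3l2 were 52.6% and 52.5% of those on Eif4a3l1 in siNT and 46.9% and 49.7% in siCnot1, and reads shared between the copies cannot be told apart here.

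**Figure D5:**
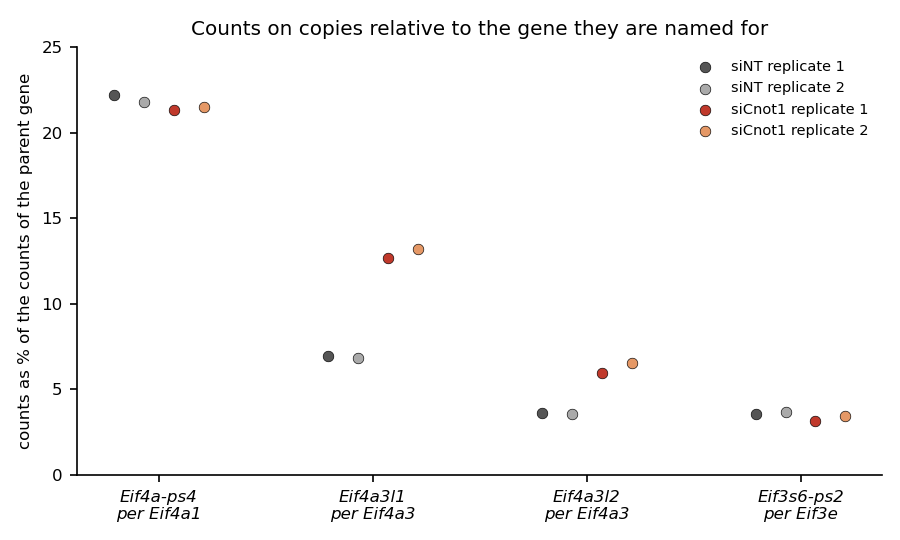
Counts on 4 gene copies as a percent of the counts on the gene they are named for, with 1 point per library. The ratio to Eif4a1 of Eif4a-ps4 stays between 21.3% and 22.2%, that of Eif4a3l1 to Eif4a3 goes from 6.83% and 6.95% to 12.7% and 13.2%, and that of Eif3s6-ps2 to Eif3e stays between 3.13% and 3.67%.

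Of the cap-binding and scaffold genes, Eif4e2 and Eif4g2 fell and the other tested genes were not called. Eif4e, which encodes the cap-binding protein, had 226 and 224 CPM in siNT and 209 and 211 CPM in siCnot1 (-0.10, SE 0.056, adjusted p = 0.196), with an interval from -0.21 to 0.012. Eif4e2, whose product 4EHP binds the cap in repressor complexes, had 251 and 241 CPM against 188 and 214 CPM and fell (-0.29, SE 0.062, adjusted p = 0.000965). Its call was lost without siNT replicate 1 (-0.27), siNT replicate 2 (-0.32) or siCnot1 replicate 1 (-0.21). Per length, Eif4e made up 41.8% and 42.5% of the mRNA of this family in siNT and 47% and 44.1% in siCnot1. Eif4e3 was near 1 CPM, with 1.83 and 1.34 CPM against 0.835 and 1.16 CPM, and its fold change was imprecise (-0.66, SE 0.389, adjusted p = 0.217). Eif4g1, the main scaffold gene, had 1243 and 1183 CPM against 1099 and 1152 CPM (-0.11, SE 0.053, adjusted p = 0.136). Eif4g2, which encodes the scaffold DAP5 that does not bind eIF4E, had 1742 and 1879 CPM against 1516 and 1551 CPM and fell (-0.24, SE 0.053, adjusted p = 0.00137), a call lost without siNT replicate 2 (-0.19) or siCnot1 replicate 1 (-0.23). Eif4g3 had 32.6 and 36.5 CPM against 35.4 and 32.2 CPM, with overlapping groups (-0.033, SE 0.097, adjusted p = 0.842). Eif4g1 and Eif4g2 were at like TPM, with 49.7% and 46.6% of the eIF4G family on Eif4g1 in siNT and 50% and 50.7% in siCnot1. This rests on listed exon lengths of 5530 bases for Eif4g1 and 7760 for Eif4g2, which was the higher by CPM.

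The 4E-BPs are small repressors that hold eIF4E when mTOR is inactive. Eif4ebp1 had 144 and 148 CPM in siNT and 150 and 156 CPM in siCnot1 and was not called (0.065, SE 0.059, adjusted p = 0.452). With library totals it was called higher (0.17). Eif4ebp2 had 143 and 155 CPM against 130 and 128 CPM and fell (-0.20, SE 0.062, adjusted p = 0.0151), a call lost whichever library was left out (-0.27 to -0.15). Eif4ebp3 had 6.36 and 5.99 CPM against 5.58 and 6.51 CPM, with overlapping groups (-0.031, SE 0.182, adjusted p = 0.924). Per length, Eif4ebp1 made up 63.3% and 62.2% of 4E-BP mRNA in siNT and 66.3% and 67.3% in siCnot1. Eif4enif1, which encodes the eIF4E transporter, was not called (0.032). Of 15 genes that signal to eIF4E, chiefly of the mTOR pathway, 3 fell (20%) and 1 rose, with a median of 0.00031, where 26.8% of tested genes of at least 20 CPM fell. With library totals 2 fell (13.3%) and 5 rose (33.3%), and the median was 0.11. On that scale 15.1% of tested genes of at least 20 CPM fell and 25.7% rose, with a median of 0.052. Deptor, which encodes an mTOR inhibitor, went from 96.4 and 110 CPM to 72.2 and 76.8 CPM (-0.47, SE 0.072, adjusted p = 2.67e-05). Mtor fell (-0.28, adjusted p = 0.00227), and Tsc1, which encodes a brake on the pathway, rose (0.39, adjusted p = 0.000921). Mtor was not called without either siNT replicate (-0.24 and -0.33) or siCnot1 replicate 1 (-0.21), nor Tsc1 without siNT replicate 1 (0.33) or siCnot1 replicate 1 (0.34).

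The eIF5 and eIF6 group had the lowest median, -0.37, and all 5 protein-coding genes fell, 83.3% of the 6 tested. Of all tested genes of at least 20 CPM 26.8% fell, and of those of at least 100 CPM 43.7%. With library totals 83.3% of the group fell, against 15.1% and 25.1%. Eif5, which encodes the GTPase activator of eIF2, had 455 and 485 CPM in siNT and 364 and 362 CPM in siCnot1 (-0.37, SE 0.055, adjusted p = 1.75e-05). Eif5b, which encodes the GTPase that joins the ribosomal subunits, had 437 and 432 CPM against 336 and 335 CPM (-0.37, SE 0.054, adjusted p = 1.17e-05). The replicates of both genes lay close together and the groups apart, and both calls held in each of the 12 alternatives. Eif5a, whose product carries hypusine and helps elongation and termination, had 1286 and 1129 CPM against 908 and 957 CPM (-0.37, SE 0.060, adjusted p = 4.42e-05). Its paralogue Eif5a2 had 26.5 and 29.8 CPM against 18.8 and 20.6 CPM (-0.51, SE 0.107, adjusted p = 0.000721), the largest fall among the called genes. Eif5a2 made up 0.851% and 1.09% of the eIF5A mRNA per length in siNT and 0.856% and 0.89% in siCnot1. Eif6, which encodes a factor that keeps the large subunit from joining early, had 163 and 140 CPM against 114 and 131 CPM (-0.31, SE 0.074, adjusted p = 0.00279). Calls were lost without siNT replicate 1 for Eif5a (-0.28), without siNT replicate 2 (-0.43) or siCnot1 replicate 1 (-0.45) for Eif5a2, and without siNT replicate 1 (-0.20) or siCnot1 replicate 1 (-0.22) for Eif6. The pseudogene Eif5al3-ps had 0.546 and 0.414 CPM against 0.447 and 0.328 CPM (-0.30, SE 0.636, adjusted p = 0.772). Of the enzymes that make hypusine on eIF5A, Dohh fell from 25.4 and 19.6 CPM to 16.2 and 17.4 CPM (-0.42, SE 0.122, adjusted p = 0.0104) and Dhps was not called. The call of Dohh was lost with library totals (-0.32), without the filter on low counts (-0.43), and without siNT replicate 1 (-0.23) or either siCnot1 replicate (-0.38 and -0.48).

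A further list held eIF1 and the partners of these complexes. Of 17 tested genes of that list 10 fell (58.8%) and none rose, with a median of -0.22, and 16 of the 17 had at least 20 CPM. Among all tested genes at that level 26.8% fell, with a median of -0.055. At 100 CPM or more 43.7% fell, with a median of -0.12. With library totals 6 of the 17 fell (35.3%) and 2 rose (11.8%), with a median of -0.11. On that scale 15.1% of tested genes of at least 20 CPM fell and 25.7% rose, with a median of 0.052. At 100 CPM or more 25.1% fell and 22.1% rose, with a median of -0.017. Bzw1, whose product competes with eIF5 for eIF2, had 585 and 632 CPM in siNT and 443 and 460 CPM in siCnot1 (-0.43, SE 0.056, adjusted p = 3.12e-06). Ddx3x, an RNA helicase gene, had 1126 and 1168 CPM against 856 and 890 CPM (-0.39, SE 0.053, adjusted p = 4.87e-06). Pdcd4, which encodes an inhibitor of eIF4A, had 43 and 44.2 CPM against 29.8 and 27.9 CPM (-0.60, SE 0.092, adjusted p = 2.8e-05).

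The 6 genes that were not tested had at most 10 counts in any library. They were Eif2c5, the oocyte-type cap-binding gene Eif4e1b, and the pseudogenes Eif2s3x-ps1, Eif3s6-ps1, Eif3s6-ps3 and Eif3s6-ps4, of which Eif2s3x-ps1 and Eif3s6-ps4 had 0 counts in all 4. Eif4e1b had 3 and 8 counts in siNT and 1 and 3 counts in siCnot1, so no difference was detectable at this depth. Some exon bases of 14 of the 60 genes overlap another gene, and whether the counting used the strand is not given. The largest was on the same strand, 30.8% of the exon bases of Eif2ak2 with Gm6548, which had 0 counts in all 4 libraries. How reads on shared bases were counted is not given, so the level of Eif2ak2 is uncertain. The largest overlaps with a clearly expressed gene were on the opposite strand, 16.5% of the exon bases of Eif5a with Gps2 and 15.9% of those of Eif5b with Rev1. Gps2 had 665 to 796 counts in the 4 libraries and Rev1 had 1623 to 2389, well under the 30457 to 40056 counts on Eif5a and the 11226 to 13618 on Eif5b.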

How the data were processed

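Libraries were poly(A)+ and strand-marked with dUTP, and were sequenced as paired 150-base reads. The authors deposited raw counts per gene, with neither normalization nor pooling. The submitters' processing notes name fastp 0.19.4, HISAT2 2.2.1, DESeq2 1.40.2 and mm10; the counting program, its strand setting and its handling of reads with several matches are not given in the sources used here. Gene positions in the table match GRCm39 and are printed as such. RefSeq sequences carry GRCm38.p6 positions and were joined by symbol only. Protein sequences were not used here.

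The counts of all 4 libraries were filtered with filterByExpr (minimum count 10), scaled by TMM and tested with edgeR 4.0.16 (quasi-likelihood, group as the only term) in R 4.3.3 over 18144 genes, with Benjamini-Hochberg adjustment over all of them. SE was taken as the absolute log2 fold change over the root of F. The fits were tested on simulated data first. An exact permutation test of 2 against 2 cannot go below p = 0.333 (two-sided), so none was used. TPM was computed from the counts and the listed exon lengths. Shares and levels compared between genes depend on these lengths, and which exons the cells used was not examined. Library totals were 32135824 to 32557440 counts, and a floor of 3 counts covers counting error only. The 12 alternatives were 3 other scalings, 2 other filters, DESeq2 1.42.0, limma-voom (limma 3.58.1), a replicate block and each library left out. The study's thresholds (unadjusted p up to 0.05 with a log2 fold change of 1 or more either way) were applied apart from these.

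The genes and lists were chosen with earlier results of these data known. Full values are given for the 6 called genes with the smallest p in each group (all genes of the eIF5 and eIF6 group), the eIF2 kinases, the 4E-BPs and tested paralogues, for Cnot1, and for at most 3 called genes of each related list. Other genes named are there as markers, as overlapping genes or as list members that were not called. The promoter motifs, apart from the pyrimidine run, the level of 100 CPM, the exon length classes, and the alternatives run for Cnot1 and the related lists were chosen after the values were seen.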

Additional observations from a re-analysis of the deposited data

How the results depend on the processing

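The study's thresholds aside, 8 of the 32 genes that fell kept their call in all 12 alternatives. In the 8 alternatives that use all 4 libraries 20 did. Of the 3 that rose, Eif4a3l1 did so in both. The count that rose went from 3 to 1 without the filter on low counts, and both counts to 0 at the study's thresholds, since no change reached 2-fold. With 1 library left out, 1 to 2 genes rose and 13 to 24 fell; such a fit leaves 1 library in a group, which is assumed to vary like the other group. With library totals the group medians became -0.19 (eIF2), -0.15 (eIF3), -0.019 (eIF4) and -0.27 (eIF5 and eIF6). With upper-quartile scaling they became -0.27 for eIF2 and -0.11 for eIF4. The eIF4 median was -0.13 without the filter or with DESeq2 and -0.12 with at least 1 CPM in 2 libraries. With 1 library left out, medians ran from -0.29 to -0.23 (eIF2), -0.28 to -0.22 (eIF3), -0.15 to -0.11 (eIF4) and -0.42 to -0.33 (eIF5 and eIF6). Cnot1 stayed between -2.39 and -2.23. Over the related lists, 2 genes rose and 18 fell; library totals gave 9 and 11, and leaving out 1 library 0 to 2 and 10 to 13.

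No called gene reversed. With library totals Eif2ak1 (0.0068), Eif2d (0.019), Eif3l (0.05), Eif4e (0.0074), Eif4ebp3 (0.075) and Eif4g3 (0.074) turned above 0. So did Eif4ebp3 without siNT replicate 1 (0.0066) or siCnot1 replicate 1 (0.072), and Eif4g3 without siNT replicate 2 (0.048) or siCnot1 replicate 2 (0.028), while Eif4enif1 ran from -0.0027 without siNT replicate 1 to 0.06 without siNT replicate 2. The cause of these shifts was not tested.

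Over 18144 genes, the correlation of deviations between libraries sharing a replicate number was 0.0109, so no common replicate effect was visible. This value cannot show whether such libraries were prepared together, and their labels do not say so either. With the replicate block 3 genes rose and 31 fell, and the call of Eif3a (-0.14) was lost.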
